A study of Mus musculus with 15 samples.

Results

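The genes described here are 57 genes of DNA replication and mitosis, 30 that act in M phase and 27 that act in S phase. They were taken from the raw count table of mouse skin by symbol, through the Ensembl identifier of each row. All 57 were found among the 53700 genes of the table, and all 57 passed the filter on low counts that kept 22529 genes. Male mice of the hairless strain SKH-1 were treated on the back, and the whole dorsal skin was taken 24 h later, with 3 libraries in each of 5 groups. In the SNX-5422+CEES group, the HSP90 inhibitor SNX-5422 was given at 20 mg/kg 15 min after 2-chloroethyl ethyl sulfide (CEES), an alkylating analog of sulfur mustard, at 2 mg per mouse. The CEES group had the same dose of CEES alone. The SNX-5422+PAO group had SNX-5422 at 20 mg/kg 15 min after phenylarsine oxide (PAO), an arsenical that binds thiols, at 100 µg per mouse. The PAO group had the same dose of PAO alone, and Control skin received ethanol, the vehicle of the agents. SNX-5422 was never given by itself in these groups. The mice carry no named transgene or allele in the labels beyond the strain, and their age is not given in the sources used here.

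A dividing cell copies its DNA in S phase and separates the copies in M phase. At the G1/S border, cyclin E and E2F factors switch on the genes for nucleotide synthesis and for the MCM helicase that opens replication origins. Before mitosis, a complex that contains B-MYB, and then FOXM1, switches on the genes of the spindle, the kinetochore and cytokinesis, which are repressed in resting cells by the DREAM complex. In skin, the cells that divide most are basal keratinocytes and the matrix cells of growing hair follicles, and after injury fibroblasts, endothelial cells and some leukocytes divide too. These transcripts are widely read as a measure of how many cells are cycling. In bulk RNA, however, fewer cycling cells and less RNA per cycling cell cannot be told apart.

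The promoters of 3 M phase and 3 S phase members are shown because these members had small p-values in the comparisons below and because members that move together can share promoter elements. The sequences are RefSeq promoters of mouse build GRCm38.p6, a different build from that of the counts, and run 5′ to 3′ along the gene, covering 250 bases before the start site and 50 bases after it. Kif23 (ENSMUSG00000032254.11) lies at chr9:61946750-61947049, minus strand, Prc1 (ENSMUSG00000038943.17) at chr7:80294201-80294500, plus strand and Mki67 (ENSMUSG00000031004.9) at chr7:135716330-135716629, minus strand. Rrm2 (ENSMUSG00000020649.12) lies at chr12:24708004-24708303, plus strand, Rrm1 (ENSMUSG00000030978.11) at chr7:102441445-102441744, plus strand and Uhrf1 (ENSMUSG00000001228.15) at chr17:56303087-56303386, plus strand. Capitals mark matches to the motifs searched, on either strand.
Kif23: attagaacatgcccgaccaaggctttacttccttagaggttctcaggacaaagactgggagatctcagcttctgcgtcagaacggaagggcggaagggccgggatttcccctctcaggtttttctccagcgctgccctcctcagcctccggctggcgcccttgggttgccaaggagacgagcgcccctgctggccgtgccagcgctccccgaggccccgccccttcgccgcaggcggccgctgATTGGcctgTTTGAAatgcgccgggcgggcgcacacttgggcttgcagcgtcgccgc
Prc1: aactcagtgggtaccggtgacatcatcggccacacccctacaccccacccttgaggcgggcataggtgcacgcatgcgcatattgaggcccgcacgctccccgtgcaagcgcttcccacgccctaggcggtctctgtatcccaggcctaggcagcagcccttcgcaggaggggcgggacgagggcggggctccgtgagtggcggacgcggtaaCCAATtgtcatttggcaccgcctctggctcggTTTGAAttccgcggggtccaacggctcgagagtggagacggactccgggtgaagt
Mki67: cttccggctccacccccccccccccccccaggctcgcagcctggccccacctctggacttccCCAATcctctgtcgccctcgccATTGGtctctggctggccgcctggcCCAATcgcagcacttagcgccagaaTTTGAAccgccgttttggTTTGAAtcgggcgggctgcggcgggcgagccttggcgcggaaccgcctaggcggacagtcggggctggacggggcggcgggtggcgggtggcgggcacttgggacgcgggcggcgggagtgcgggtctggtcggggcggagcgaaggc
Rrm2: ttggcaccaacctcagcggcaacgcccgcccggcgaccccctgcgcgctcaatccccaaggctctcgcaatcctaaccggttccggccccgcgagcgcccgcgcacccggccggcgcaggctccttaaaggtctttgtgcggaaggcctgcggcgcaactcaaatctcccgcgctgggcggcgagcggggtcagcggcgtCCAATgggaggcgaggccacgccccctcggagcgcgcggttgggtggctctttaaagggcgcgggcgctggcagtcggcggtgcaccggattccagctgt
Rrm1: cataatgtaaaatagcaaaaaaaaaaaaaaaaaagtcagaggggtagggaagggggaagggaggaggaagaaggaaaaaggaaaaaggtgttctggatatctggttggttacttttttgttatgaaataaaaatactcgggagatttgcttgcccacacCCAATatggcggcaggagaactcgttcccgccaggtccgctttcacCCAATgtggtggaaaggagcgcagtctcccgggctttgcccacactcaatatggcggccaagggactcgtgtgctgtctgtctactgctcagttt
Uhrf1: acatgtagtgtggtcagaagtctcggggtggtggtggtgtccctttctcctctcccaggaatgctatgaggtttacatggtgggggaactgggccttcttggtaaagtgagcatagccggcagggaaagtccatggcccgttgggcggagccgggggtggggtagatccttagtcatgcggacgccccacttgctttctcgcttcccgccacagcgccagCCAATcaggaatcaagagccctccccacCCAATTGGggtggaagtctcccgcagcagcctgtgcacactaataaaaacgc

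The cell cycle homology region (CHR), bound by DREAM and B-MYB complexes, was searched as TTTGAA and TTCGAA. The E2F site was searched as TTTCCCGC, TTTGGCGC and TTTCGCGC. The box of NF-Y, a factor common at cell cycle promoters, was searched as CCAAT. A CHR match stood in 19 of the 25 M phase members with a promoter entry (76.0%) and in 5 of the 23 S phase members (21.7%), against 19.4% of all 27025 promoters. An E2F match stood in 2 M phase members (8.0%) and in 8 S phase members (34.8%), namely Cdc6, Cdt1, E2f2, Mcm3, Mcm5, Mcm6, Mcm7 and Pola1, against 1.91% of all promoters. The NF-Y box stood in 18 M phase members (72.0%) and in 15 S phase members (65.2%), against 37.9% of all promoters. A CHR match and an NF-Y box together stood in 64.0% of the M phase members, in 17.4% of the S phase members and in 7.7% of all promoters. The promoters of Kif23, Prc1 and Mki67 each hold both. Those of Rrm2, Rrm1 and Uhrf1 hold the NF-Y box alone, and in Uhrf1 a match on each strand overlaps in CCAATTGG. A match describes these letters in this window and does not show that a factor binds there, and the absence of a match says nothing of the factor. Tpx2, Dlgap5, Ccna2, Kif20a, Aurkb, Ccne2, Gins1, Gins2 and Mcm4 had no entry.

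**Figure D1:**
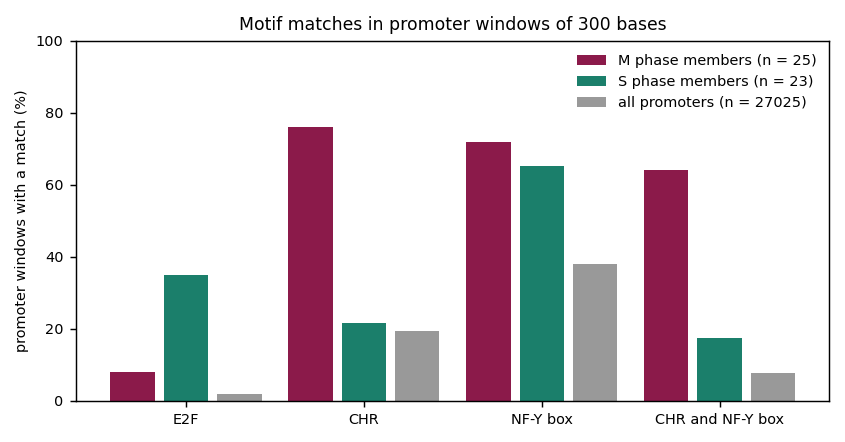
Share of promoter windows of 300 bases that hold a motif match on either strand (vertical axis, %), for 25 M phase members, 23 S phase members and 27025 promoters of all genes. The CHR bar is at 76.0% in M phase members, and the E2F bar is at 34.8% in S phase members.

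Each library held between 16838212 and 28887367 reads counted on genes, of which the 57 members took 20839 to 53075. The share of mitochondrial ribosomal RNA was 8.20 to 9.08% in SNX-5422+CEES libraries, 5.72 to 9.43% in CEES, 12.3 to 17.4% in SNX-5422+PAO, 9.69 to 17.7% in PAO and 6.63 to 8.23% in Control. None of 8 basal keratinocyte markers, such as Krt5 and Krt14, was at 0 in any group, and they summed to 7531 to 11947 CPM. Pancreas transcripts, which are no part of skin, summed to 24.0 to 137 CPM in SNX-5422+CEES libraries, 8.52 to 12.3 in CEES, 1507 to 2275 in SNX-5422+PAO, 929 to 1508 in PAO and 829 to 2475 in Control. The labels give doses per mouse without stating whether 1 library stands for 1 animal, so the spread behind the p-values is that between libraries and may be technical. Library codes run in blocks by group, 1 to 3 in Control, 4 to 6 in PAO and 7 to 9 in SNX-5422+PAO. They are 13 to 15 in CEES and 16 to 18 in SNX-5422+CEES. The labels do not say what the codes stand for. If they follow handling, it cannot be told apart from treatment in any comparison. SNX-5422+PAO library 1 lay below libraries 2 and 3 of its group in the summed and mean levels of the members. The number of all members called in a comparison of that group, and of members that do not overlap there, is also given without it. So are most counts of other cell cycle genes and of histone genes. Counts by phase or role, of G1 cyclins and their CDKs, of CDK inhibitors, of RB, E2F and DREAM regulators and of cell markers are not. For the gene lists and the non-overlap, the counts without that library were added after seeing the data.

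The summed level of the M phase members was lowest after PAO and higher in both SNX-5422 groups. It was 1279 to 1337 CPM in SNX-5422+CEES libraries, 1089 to 1149 in CEES, 1089 to 1481 in SNX-5422+PAO, 760.2 to 902 in PAO and 1003 to 1072 in Control. PAO libraries lay below every library of the other groups, and Control libraries lay below those of both SNX-5422 groups and of CEES. The S phase members summed to 739 to 763 CPM in SNX-5422+CEES, 697 to 764 in CEES, 667 to 888 in SNX-5422+PAO, 576 to 606 in PAO and 639 to 677 in Control. Here too the PAO libraries were the lowest, while the SNX-5422+PAO group overlapped with Control through its library 1.

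**Figure D2:**
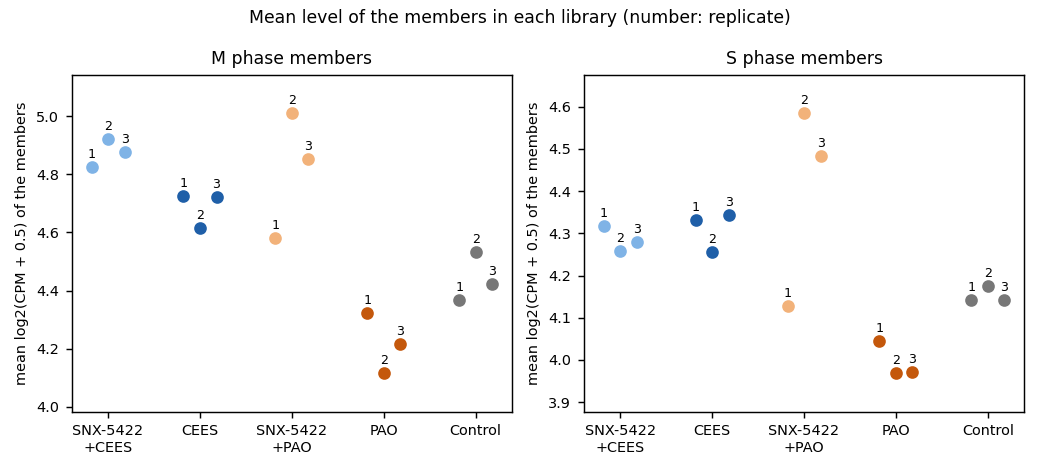
Mean log2(CPM + 0.5) of the 30 M phase and the 27 S phase members in each library (vertical axes), by group, with the replicate number above each point. In M phase the PAO libraries (4.12 to 4.32) lie below the Control libraries (4.37 to 4.53), and SNX-5422+PAO library 1 (4.58) lies below libraries 2 (5.01) and 3 (4.85).

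**Figure D3:**
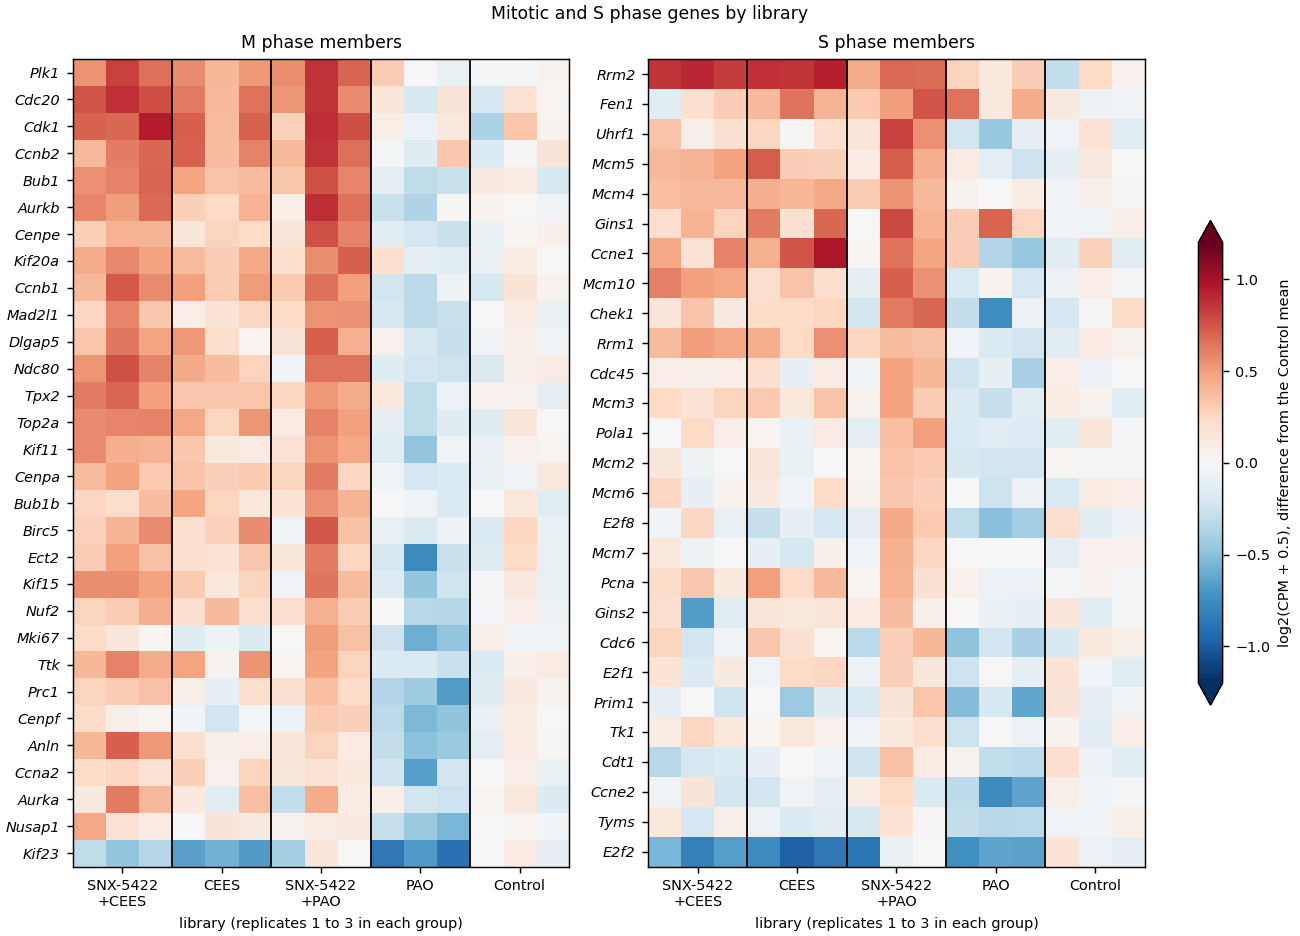
Difference of log2(CPM + 0.5) from the Control mean (colour) for each member (rows) in each library (columns, 3 per group). Kif23 and E2f2 are below the Control mean in all PAO, CEES and SNX-5422+CEES libraries, while 29 of 30 M phase members have a positive fold change over Control in each SNX-5422 group.

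The first comparison asked which members differed after PAO. PAO lowered 10 of the 57 members and raised none. Those lowered were 7 M phase members (Kif23, Prc1, Cenpf, Mki67, Nusap1, Anln and Ccna2) and 3 S phase members (E2f2, Ccne2 and Tyms). The members lowered were 17.5% of 57, where 8.58% of all genes tested were lowered, 11.9% were raised and 20.4% were called in either direction. The median log2 fold change was -0.21 over M phase and -0.16 over S phase members, against 0.00 over all genes. Calls were made with edgeR's quasi-likelihood test at a Benjamini-Hochberg adjusted p under 0.05 over all 22529 genes. Among members with a positive fold change 1 had an unadjusted p under 0.05, and DESeq2 also raised none and lowered 12. The CPM of the groups did not overlap for 20 members that were lower after PAO (17.2% of all genes) and for 2 that were higher (18.8% of all genes).

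PAO lowered 3 of the 5 members of cytokinesis, the step that splits the daughter cells. Kif23, a kinesin of the central spindle, had 23.3, 26.5 and 22.6 CPM in PAO libraries, against 42.5, 45.8 and 39.7 CPM in Control libraries. Its log2 fold change was -0.82 (SE 0.12, adjusted p = 0.000189), and every PAO library lay below every Control library. Prc1, which bundles the microtubules of the same structure, had 19.5, 18.5 and 15.6 CPM in PAO and 22.5, 27 and 25.8 CPM in Control libraries, without overlap (log2 fold change -0.49, SE 0.11, adjusted p = 0.00477). Anln, an actin-binding protein of the cleavage furrow, had 46.7, 40.5 and 41.7 CPM in PAO and 52.9, 61.0 and 57.5 CPM in Control libraries, again without overlap (-0.41, SE 0.09, adjusted p = 0.00507). Of the other cytokinesis members, Ect2 (log2 fold change -0.40) and Kif20a (-0.01) did not pass the test. The CPM of 4 of the 5 cytokinesis members lay below Control in all PAO libraries.

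PAO lowered 1 of 5 kinetochore and centromere members and 2 of 8 cyclins and mitotic kinases, a group in which Mki67 is counted. Cenpf, a large protein of the outer kinetochore, had 43.5, 37.1 and 38.7 CPM in PAO and 51.3, 57.8 and 53.9 CPM in Control libraries, with no overlap (log2 fold change -0.45, SE 0.11, adjusted p = 0.00674). Mki67, the proliferation antigen Ki-67 that coats mitotic chromosomes, had 272, 214 and 232 CPM in PAO and 338, 314 and 315 CPM in Control libraries. It fell by 0.43 on the log2 scale (SE 0.11, adjusted p = 0.0132), and the groups did not overlap. Ccna2, the cyclin A of S phase and early mitosis, had 21.6, 16.0 and 21.9 CPM in PAO and 25.8, 27.1 and 24.3 CPM in Control libraries, also apart (-0.37, SE 0.11, adjusted p = 0.0272). Cdk1, the kinase that drives entry into mitosis, had 14.8, 13.3 and 15.3 CPM in PAO and 10.6, 17.8 and 14.5 CPM in Control libraries, and these overlapped (log2 fold change 0.02, SE 0.18, adjusted p = 0.956). Ccnb2, Plk1 and Cdc20 also had fold changes close to 0 (0.06, 0.09 and 0.04).

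In S phase, the called falls were in G1/S regulators and thymidylate synthesis, and none of the 12 origin licensing and helicase members was called. E2f2, an activating E2F factor, had 13.6, 14.6 and 14.5 CPM in PAO and 25.7, 21.8 and 21.4 CPM in Control libraries, without overlap (log2 fold change -0.69, SE 0.17, adjusted p = 0.00933). Ccne2, a cyclin E, had 9.45, 6.80 and 7.49 CPM in PAO and 12.5, 11.5 and 11.7 CPM in Control libraries, again without overlap (-0.58, SE 0.15, adjusted p = 0.0114). Tyms, thymidylate synthase, fell by 0.32. E2f1, the factor most used to stand for G1/S entry, had 10.5, 12.5 and 11.5 CPM in PAO and 14.1, 12.3 and 11.4 CPM in Control libraries, which overlapped (log2 fold change -0.13, SE 0.14, adjusted p = 0.568). Pcna, the sliding clamp of the replication fork, had 33.2, 30.3 and 30.4 CPM in PAO and 31.4, 32.8 and 31.6 CPM in Control libraries, also overlapping (-0.03, SE 0.10, adjusted p = 0.874). The share of mitochondrial ribosomal RNA differed between the groups without overlap. With that share as a covariate the median was -0.22 over M phase and -0.21 over S phase members, as large as without it, while 2 members were called and the calls over all genes dropped to 2206 with the covariate, against 4607 without it. With libraries scaled to total counts, which moved the median of all genes to -0.21, 30 members were lowered. Except where calls over all genes are printed, member counts under other settings are given without the share of all genes called there. A change in such a count can therefore be one of all genes.

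The second comparison asked what SNX-5422 changed in skin that had received PAO. SNX-5422+PAO raised 37 of the 57 members over PAO and lowered none. That was 64.9% of the members, where 2.57% of all genes were raised, 3.39% lowered and 5.96% called in either direction. In M phase 27 of 30 members rose, with a median log2 fold change of 0.62, and in S phase 10 of 27 rose, with a median of 0.43, against -0.01 over all genes. The fold change was positive for 57 of 57 members. In 43 members every SNX-5422+PAO library lay above every PAO library (11.7% of all genes), and in 55 without SNX-5422+PAO library 1 (18.2% of all genes), with no member below (20.1% of all genes). No member had a negative fold change with an unadjusted p under 0.05 in edgeR, and DESeq2 raised 42 and lowered none.

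**Figure D4:**
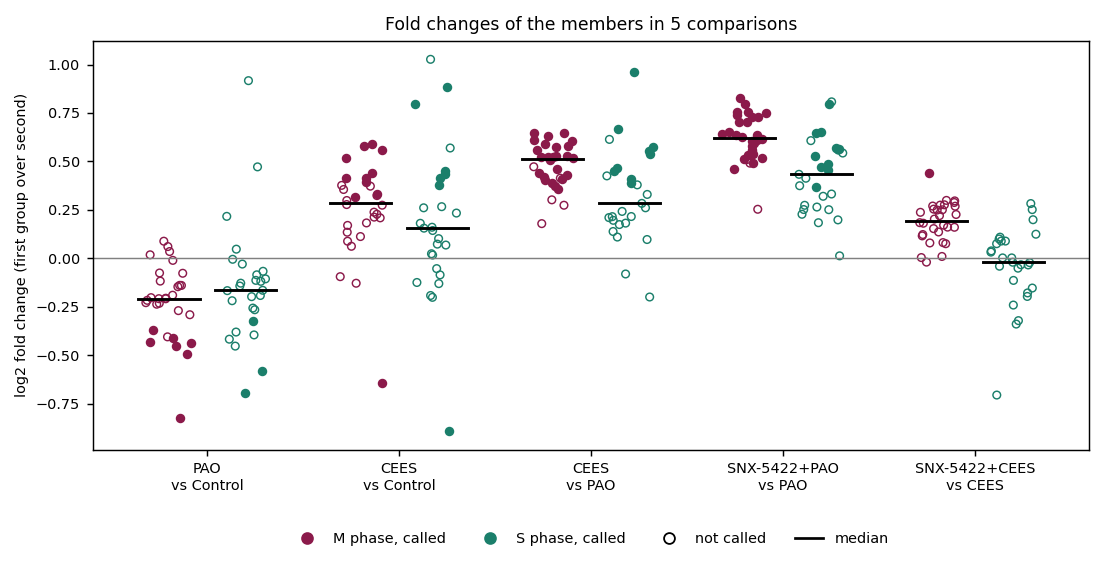
Log2 fold changes of the members (points) in 5 comparisons, for M phase and S phase members, filled where called at an adjusted p under 0.05, with the median as a bar. In SNX-5422+PAO vs PAO the median is 0.62 for M phase and 0.43 for S phase members, and in SNX-5422+CEES vs CEES it is 0.19 and -0.02.

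Of the 6 spindle checkpoint and anaphase members 4 rose in SNX-5422+PAO, as did all 5 of the kinetochore and centromere. Bub1, a kinase of the spindle checkpoint, had 14.1, 19.2 and 16.9 CPM in SNX-5422+PAO libraries, against 10.2, 8.91 and 9.16 CPM in PAO libraries. The log2 fold change was 0.83 (SE 0.13, adjusted p = 0.00182), the largest of the 57 by fold, and the groups did not overlap. Mad2l1 (0.73), Cdc20 (0.63) and Bub1b (0.46), which make up the brake on anaphase and its target, also rose, while Birc5 (0.51, adjusted p = 0.129) and Ttk (0.49, adjusted p = 0.064) did not pass the test. Cenpe, a kinesin motor of the kinetochore, had 36.1, 55.6 and 49.5 CPM in SNX-5422+PAO and 29.6, 28.2 and 26.9 CPM in PAO libraries. All 3 SNX-5422+PAO libraries lay above PAO (0.74, SE 0.12, adjusted p = 0.0024). The other 4 kinetochore and centromere members, Ndc80 (0.70), Cenpf (0.64), Nuf2 (0.56) and the centromeric histone Cenpa (0.54), rose as well.

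All 5 cytokinesis members rose. Prc1 had 28.6, 32.2 and 29.5 CPM in SNX-5422+PAO libraries, against the 15.6 to 19.5 CPM of PAO libraries (log2 fold change 0.75, SE 0.11, adjusted p = 0.00133). Kif23 had 32.1, 47.0 and 42.8 CPM in SNX-5422+PAO libraries, against at most 26.5 CPM in PAO libraries (0.75, SE 0.12, adjusted p = 0.00216). Anln had 63.0, 68.6 and 61.2 CPM in SNX-5422+PAO libraries, against at most 46.7 CPM in PAO libraries (0.58, SE 0.09, adjusted p = 0.00217). None of the 3 overlapped with PAO. Ect2, the exchange factor that starts furrow formation, rose by 0.76 and Kif20a by 0.53.

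Of the 8 cyclins and mitotic kinases, Mki67 included, 7 rose. Mki67 had 322, 456 and 410.2 CPM in SNX-5422+PAO libraries, against 272, 214 and 232 CPM in PAO libraries, without overlap (log2 fold change 0.73, SE 0.11, adjusted p = 0.00182). Cdk1 had 17.1, 26.4 and 24.3 CPM in SNX-5422+PAO libraries, against at most 15.3 CPM in PAO libraries. Its log2 fold change was 0.64 (SE 0.18, adjusted p = 0.0484), and the call was lost with libraries scaled to total counts, with the mitochondrial ribosomal RNA covariate and when any 1 of the PAO libraries was left out, among other settings. Aurkb (0.80), Ccnb1 (0.70), Plk1 (0.65), Ccnb2 (0.61) and Ccna2 (0.51) rose, and Aurka, the centrosomal Aurora kinase, did not pass (0.25, adjusted p = 0.533). All 6 spindle members rose. Top2a, the topoisomerase that untangles sister chromatids, had 122, 172 and 161 CPM in SNX-5422+PAO and 106, 92.0 and 103 CPM in PAO libraries, without overlap (0.60, SE 0.12, adjusted p = 0.00673), and Kif15, Kif11, Dlgap5, Nusap1 and Tpx2 rose by 0.49 to 0.64.

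In S phase, of the 12 origin licensing and helicase members 5 rose, namely Mcm2 (0.45), Mcm3 (0.49), Mcm4 (0.37), Mcm5 (0.53) and Cdc45 (0.56). Mcm4, a subunit of the helicase, had 47.4, 55.7 and 50.1 CPM in SNX-5422+PAO and 39.3, 38.4 and 40.7 CPM in PAO libraries, without overlap (SE 0.08, adjusted p = 0.00873). Uhrf1, which carries DNA methylation to the new strand, had 52.6, 84.2 and 69.7 CPM in SNX-5422+PAO and 40.6, 34.6 and 43.6 CPM in PAO libraries, also without overlap (log2 fold change 0.80, SE 0.15, adjusted p = 0.00484). Rrm1, the large subunit of ribonucleotide reductase, had 68.6, 74.9 and 73.6 CPM in SNX-5422+PAO and 56.2, 51.0 and 49.2 CPM in PAO libraries, again apart (0.47, SE 0.09, adjusted p = 0.00716). Ccne2 (0.65), E2f8 (0.65) and the primase subunit Prim1 (0.57) also rose.

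Other S phase members, the factors E2f1 and E2f2 among them, were not called in SNX-5422+PAO. E2f1 had 11.9, 15.4 and 13.8 CPM in SNX-5422+PAO libraries, which overlapped with the 10.5 to 12.5 CPM of PAO libraries (log2 fold change 0.25, SE 0.14, adjusted p = 0.347). E2f2 had 12.4, 21.6 and 22.9 CPM in SNX-5422+PAO libraries, the first below all 3 PAO libraries and the others above them (0.41, SE 0.17, adjusted p = 0.194). Pcna had 32.5, 42.9 and 36.3 CPM in SNX-5422+PAO libraries, against 30.3 to 33.2 CPM in PAO libraries, and these overlapped (0.25, SE 0.11, adjusted p = 0.188). The kinase Chek1 had a large but uncertain difference (0.81, adjusted p = 0.05 as rounded, not under the threshold). The S phase members that did not pass otherwise had log2 fold changes between 0.01 (Gins1, a subunit of the replicative helicase) and 0.61 (Ccne1). Whether M phase members rose by more than S phase members was not tested.

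Of the 10 members lowered by PAO, 8 were raised by SNX-5422+PAO over PAO. Both comparisons use the PAO libraries, so this count is not independent of their spread. Without SNX-5422+PAO library 1, 46 members were raised over PAO. Without library 2 of that group 14 were raised and without library 3, 19, while without PAO library 3, 21 were raised. In libraries scaled to total counts, in which the median of all genes was -0.14, 19 members were raised and none lowered, and with the mitochondrial ribosomal RNA covariate 28 were raised.

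**Figure D5:**
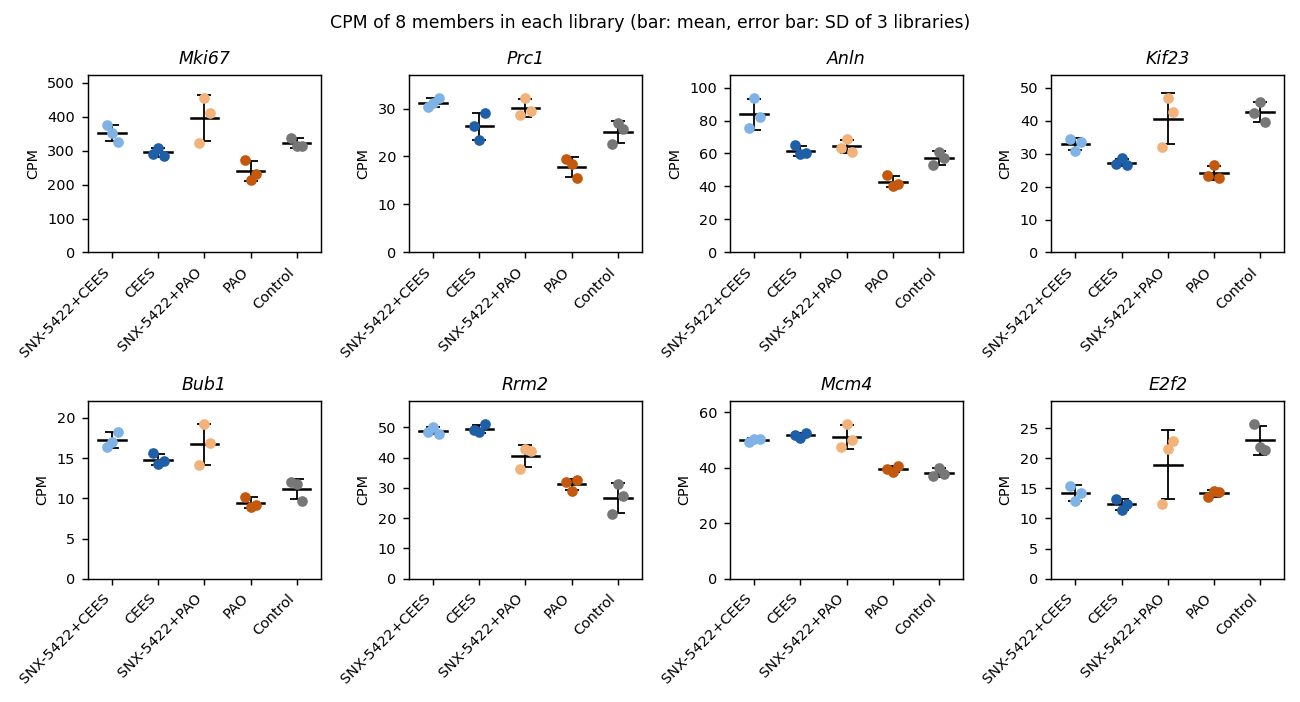
CPM of 8 members in each library (points), with the group mean (bar) and SD of 3 libraries (error bar), on axes that start at 0. Kif23 is at 22.6 to 26.5 CPM in PAO and at 32.1 to 47.0 CPM in SNX-5422+PAO libraries, while Rrm2 is highest in both CEES groups.

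CEES was then compared with Control. CEES raised 16 of the 57 members over Control and lowered 2, namely Kif23 and E2f2. The members raised were 28.1% of 57, where 17.8% of all genes were raised, and those lowered were 3.51%, where 16.2% of all genes were lowered. Of the M phase members 10 rose and 1 fell (median log2 fold change 0.29), and of the S phase members 6 rose and 1 fell (median 0.16), against -0.04 over all genes. The CPM of the groups did not overlap for 27 members that were higher after CEES (23.5% of all genes) and for 4 that were lower (24% of all genes), so the share of higher members stood above that of all genes and the share of lower members below it.

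Of the 4 nucleotide synthesis members 2 rose. Rrm2, the small subunit of ribonucleotide reductase, had 49.1, 48.5 and 51.1 CPM in CEES and 21.5, 31.4 and 27.4 CPM in Control libraries. All CEES libraries lay above Control (log2 fold change 0.89, SE 0.11, adjusted p = 1.81e-05). Rrm1 had 78.1, 67.6 and 84.4 CPM in CEES and 52.1, 61.5 and 59.1 CPM in Control libraries, also without overlap (0.41, SE 0.09, adjusted p = 0.0023). Tyms (-0.12) and Tk1 (0.07), the thymidylate enzymes, did not pass the test.

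At the replication fork, Mcm4 had 51.8, 50.7 and 52.6 CPM in CEES and 37.0, 40.0 and 37.7 CPM in Control libraries, with CEES higher in all (log2 fold change 0.43, SE 0.07, adjusted p = 0.000305). Mcm5 rose by 0.45. Pcna had 45.1, 37.4 and 42.0 CPM in CEES and 31.4, 32.8 and 31.6 CPM in Control libraries, without overlap (0.38, SE 0.10, adjusted p = 0.00987), and its call was lost without CEES library 1. The other 10 origin licensing and helicase members were not called. Ccne1, a cyclin E, rose by 0.80, with 4.98, 6.40 and 7.49 CPM in CEES and 3.21, 4.46 and 3.21 CPM in Control libraries. Ccne2, its close relative, had 10.1, 11.5 and 10.9 CPM in CEES and 11.5 to 12.5 CPM in Control libraries and was not called (-0.13, SE 0.15, adjusted p = 0.53). E2f2 had 13.3, 11.4 and 12.4 CPM in CEES and 25.7, 21.8 and 21.4 CPM in Control libraries, without overlap (-0.89, SE 0.17, adjusted p = 0.000789).

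The 10 M phase members that rose included regulators of mitotic entry and exit. Cdc20, the activator of the anaphase-promoting complex, had 28.7, 24.4 and 29.3 CPM in CEES and 16.0, 20.9 and 19.0 CPM in Control libraries, without overlap (log2 fold change 0.56, SE 0.13, adjusted p = 0.0029). Plk1, a kinase of mitotic entry, had 14.9, 13.2 and 14.4 CPM in CEES and 9.74, 9.71 and 10.2 CPM in Control libraries, also apart (0.52, SE 0.13, adjusted p = 0.00525). Cdk1 had 23.3, 18.4 and 23.1 CPM in CEES and 10.6 to 17.8 CPM in Control libraries (0.59, SE 0.18, adjusted p = 0.0165), and Top2a had 157, 136 and 165 CPM in CEES and 103, 127 and 114 CPM in Control libraries (0.42, SE 0.11, adjusted p = 0.0103). Neither overlapped with Control. Ccnb2 (0.58), Ccnb1 (0.44), Bub1 (0.41), Kif20a (0.39), Tpx2 (0.33) and Cenpa (0.32) rose too.

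Mki67 was not among them. It had 291, 309 and 285 CPM in CEES libraries, all below the 314 to 338 CPM of Control libraries, but the difference did not pass the test (log2 fold change -0.13, 95% interval -0.38 to 0.12, adjusted p = 0.415). Kif23 had 26.9, 28.6 and 26.4 CPM in CEES and 42.5, 45.8 and 39.7 CPM in Control libraries, and fell by 0.64 (SE 0.12, adjusted p = 0.000552). Cenpf (-0.09) and Prc1 (0.06) were near 0. Without Control library 1 or without CEES library 1, 11 members were called in place of 18, and the calls of Cdk1 and, without Control library 1, of Top2a were lost.

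Set against PAO, CEES raised 34 of the 57 members and lowered none, 25 in M phase (median log2 fold change 0.51) and 9 in S phase (median 0.28). That was 59.6% of the members, where 9.86% of all genes were raised and 9.02% lowered. The smallest p-values were those of Rrm1 (0.56, SE 0.09, adjusted p = 0.000606), Rrm2 (0.67, SE 0.11, adjusted p = 0.000663) and Anln (0.52, SE 0.09, adjusted p = 0.00103), followed by Top2a (0.61), Ccna2 (0.58) and Mcm4 (0.39). In all 6 the CEES libraries lay above the PAO libraries, as they did in 46 members (18.3% of all genes), while 1 member, E2f2, lay below (18.8% of all genes). Mki67 had a positive difference that did not pass (0.30, SE 0.11, adjusted p = 0.0767), and E2f1 overlapped (0.28, SE 0.14, adjusted p = 0.177). DESeq2 raised 38 and lowered none, and no member had a negative fold change with an unadjusted p under 0.05. With the mitochondrial ribosomal RNA share as a covariate 4 members were called, and over all genes 1066 with the covariate, against 4255 without it. The medians in that fit were 0.50 over M phase and 0.38 over S phase members. Scaled to total counts, which moved the median of all genes to 0.31, CEES raised 52 members and lowered none. Without PAO library 2 the count was 19, without PAO library 3 it was 21, without CEES library 1 it was 20 and without CEES library 3 it was 22.

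In skin that had received CEES, SNX-5422 changed 1 member by the test. Anln had 75.3, 93.8 and 82.0 CPM in SNX-5422+CEES libraries, against 65.3, 59.7 and 60.4 CPM in CEES libraries, without overlap. It rose by 0.44 on the log2 scale (SE 0.09, edgeR adjusted p = 0.00873), where 3.54% of all genes were raised and 3.46% lowered. The call was lost without SNX-5422+CEES library 2, the highest of the 3 libraries, and under scaling to total counts. DESeq2 also called 1 member and lowered none.

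The other 29 M phase members did not pass the test. Over all 30 the median log2 fold change was 0.19, 29 were positive, and 7 had an unadjusted p under 0.05, while the median over all genes was 0.01. Mki67 had 375, 353 and 327 CPM in SNX-5422+CEES and 291, 309 and 285 CPM in CEES libraries, with no overlap (0.25, 95% interval 0.00 to 0.51, adjusted p = 0.224). Prc1 had 30.3, 31.1 and 32.2 CPM in SNX-5422+CEES and 26.3, 23.4 and 29.1 CPM in CEES libraries, also apart (0.25, SE 0.11, adjusted p = 0.207). Kif23 had 34.5, 30.8 and 33.5 CPM in SNX-5422+CEES and 26.4 to 28.6 CPM in CEES libraries (0.27, SE 0.12, adjusted p = 0.215). In 16 members the SNX-5422+CEES libraries all lay above the CEES libraries (13.1% of all genes), and in 3 they all lay below (12.8% of all genes).

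No S phase member was called by edgeR or DESeq2. Their median log2 fold change was -0.02, 13 of 27 were positive, and none had an unadjusted p under 0.05. Rrm2 had 48.5, 50.1 and 47.8 CPM in SNX-5422+CEES and 48.5 to 51.1 CPM in CEES libraries (-0.02, 95% interval -0.27 to 0.22, adjusted p = 0.943). Mcm4 had 49.1, 50.3 and 50.3 CPM in SNX-5422+CEES and 50.7 to 52.6 CPM in CEES libraries (-0.05, 95% interval -0.22 to 0.11, adjusted p = 0.788). Pcna had 37.2, 40.1 and 34.6 CPM in SNX-5422+CEES and 37.4 to 45.1 CPM in CEES libraries (-0.15, SE 0.10, adjusted p = 0.463). Rrm2 and Pcna overlapped between the groups, and Mcm4 was slightly lower in all SNX-5422+CEES libraries.

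The difference between the SNX-5422 effects was tested as an interaction, the effect after CEES minus the effect after PAO. By edgeR's quasi-likelihood test 0 of the 57 members passed, where 0.737% of all genes did. The lowest adjusted p was 0.073, for Mcm4. The difference was negative for 56 of 57 members, with a median of -0.46 over M phase and -0.44 over S phase members, against 0.02 over all genes, and 36 members had an unadjusted p under 0.05. DESeq2 called 9 members, all negative, edgeR without a filter called 2, and without SNX-5422+PAO library 1 it called 7. Among the members described above, the difference was negative for Bub1 (-0.61, 95% interval -1.01 to -0.21, adjusted p = 0.126), Uhrf1 (-0.76, 95% interval -1.21 to -0.30, adjusted p = 0.0967) and Cenpe (-0.58, 95% interval -0.95 to -0.20, adjusted p = 0.123). For Anln the difference was -0.14 (95% interval -0.43 to 0.15, adjusted p = 0.717).

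Against Control, both SNX-5422 groups held more raised members than lowered ones. SNX-5422+CEES raised 25 of the 57 members (13.1% of all genes were raised) and lowered Kif23 and E2f2 (9.25% of all genes were lowered). M phase took 20 of the 25, with a median log2 fold change of 0.48, and S phase 5, with a median of 0.11. The CPM of SNX-5422+CEES lay above Control in all libraries for 35 members (19.8% of all genes) and below for 3 (17.9% of all genes). The largest M phase rises were Cdc20 (0.81), Cdk1 (0.77) and Plk1 (0.70), and in S phase Rrm2 rose by 0.86. Kif23 had 34.5, 30.8 and 33.5 CPM in SNX-5422+CEES and 42.5, 45.8 and 39.7 CPM in Control libraries (-0.37, SE 0.12, adjusted p = 0.0315). Without Control library 1 or SNX-5422+CEES library 2, 17 members were called.

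SNX-5422+PAO raised 21 members over Control and lowered none (10.7% of all genes were raised and 8.66% lowered), but in libraries scaled to total counts 1 was raised and 3 were lowered, with a median of -0.33 over all genes under that scaling. The median was 0.40 over M phase members, of which 16 rose, and 0.24 over S phase members, of which 5 rose. All SNX-5422+PAO libraries lay above all Control libraries for 23 members (18.4% of all genes) and below for none (16.3% of all genes). Without SNX-5422+PAO library 1 they lay above for 49 (23.8% of all genes) and below for none (21.6% of all genes). Plk1 rose by 0.74, Ccnb2 by 0.67, Cdc20 by 0.66, Bub1 by 0.59 and Rrm2 by 0.59. Kif23 (-0.07), Prc1 (0.26), Anln (0.17) and Mki67 (0.30), all lowered by PAO alone, did not differ from Control by the test. In Prc1 and Anln all SNX-5422+PAO libraries still lay above all Control libraries, while Kif23 and Mki67 overlapped. No member had a negative fold change with an unadjusted p under 0.05, and DESeq2 raised 22 and lowered none. The count was 9 when the 2 groups compared were fitted alone. With the mitochondrial ribosomal RNA covariate edgeR called 0 members (12 at an unadjusted p under 0.05), with medians of 0.36 over M phase and 0.20 over S phase members, and it called 534 of all genes, against 4353 without the covariate. Without SNX-5422+PAO library 1 the count was 31, without library 2 it was 7 and without library 3 it was 9, and without Control library 1 it was 9 and without Control library 3 it was 10.

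In all, 45 members were called in at least 1 of the comparisons and 12 in none. The 12 were Aurka and Birc5 of M phase and Cdt1, Chek1, E2f1, Fen1, Gins1, Gins2, Mcm6, Mcm7, Pola1 and Tk1 of S phase. Fen1, the flap endonuclease of Okazaki fragments, had 22 to 45 counts per group, so its fold changes carry wide intervals (CEES vs Control 1.03, 95% interval 0.09 to 1.96, adjusted p = 0.0699). It overlaps another gene in the mouse genome and is uncertain without a stated strand setting.

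The transcription factors that govern these genes were read beside them. Foxm1, the activator of G2/M genes, averaged 25.2 ± 6.05 CPM in SNX-5422+PAO, 16.1 ± 0.488 in PAO and 22.6 ± 2.28 in Control libraries (SD, n = 3 each). It fell by 0.49 after PAO (SE 0.14, edgeR adjusted p = 0.0208) and rose by 0.65 in SNX-5422+PAO over PAO (SE 0.14, edgeR adjusted p = 0.0129), and in neither comparison did the groups overlap. Lin9, a core subunit of the B-MYB complex, fell by 0.52 after PAO and rose by 0.55 with SNX-5422. Mybl2, which encodes B-MYB, averaged 16.2 ± 3.64 CPM in SNX-5422+PAO, 11.8 ± 2.06 in PAO and 12.9 ± 1.78 in Control libraries (SD, n = 3 each), with overlap and no call. E2f7, a repressor of E2F targets, averaged 17.7 ± 2.03 CPM in CEES and 11.6 ± 0.287 in Control libraries (SD, n = 3 each) and rose by 0.61 (SE 0.17, edgeR adjusted p = 0.00918). Of the 15 RB, E2F and DREAM regulators tested, 1 rose and 5 fell after PAO (11.9% and 8.58% of all genes). After CEES 1 rose and 2 fell (17.8% and 16.2% of all genes). In SNX-5422+PAO over PAO 3 rose and none fell (2.57% and 3.39% of all genes).

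Regulators of G1 were read in the same way. Cdkn1a, the p53 target p21 that inhibits cyclin-dependent kinases, averaged 140.3 ± 6.88 CPM in CEES and 83.1 ± 4.04 in Control libraries (SD, n = 3 each), and rose by 0.76 (SE 0.11, edgeR adjusted p = 6.72e-05) with no overlap. In SNX-5422+PAO it averaged 67.0 ± 5.91 CPM, against 94.6 ± 7.64 in PAO libraries (SD, n = 3 each), and fell by 0.50 (SE 0.11, edgeR adjusted p = 0.0144), also apart. The list of 7 CDK inhibitors, Cdkn1a included, went both ways. There 2 rose and 1 fell in SNX-5422+PAO over PAO (2.57% and 3.39% of all genes). After CEES 1 rose and 1 fell (17.8% and 16.2% of all genes). Ccnd1, the cyclin D1 of G1, rose after CEES by 0.51 (SE 0.12, edgeR adjusted p = 0.00398) and had a fold change of 0.02 in SNX-5422+PAO over PAO. Among 6 G1 cyclins and their CDKs, 2 rose and 1 fell (-0.67) after CEES (17.8% and 16.2% of all genes). None of the 6 was called in SNX-5422+PAO over PAO, where 2.57% of all genes rose and 3.39% fell. Myc, an inducer of growth genes, averaged 51.9 ± 5.36 CPM in SNX-5422+PAO and 73.6 ± 3.91 in PAO libraries (SD, n = 3 each), and fell by 0.50 (SE 0.10, edgeR adjusted p = 0.00855) without overlap, while its relative Mycn rose by 1.42 (SE 0.34, edgeR adjusted p = 0.021).

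Other cell cycle genes were counted by list. Of 151 tested outside the 57, 51 (33.8%) rose and 4 (2.65%) fell in SNX-5422+PAO over PAO, where 2.57% of all genes rose and 3.39% fell. Without SNX-5422+PAO library 1, 68 rose and 5 fell there. After PAO 6 (3.97%) rose and 27 (17.9%) fell, where 11.9% of all genes rose and 8.58% fell. After CEES 31 (20.5%) rose and 8 (5.3%) fell, and the share that rose was near the 17.8% of all genes, of which 16.2% fell. In SNX-5422+CEES over CEES 1 rose and 1 fell, where 3.54% of all genes rose and 3.46% fell. Scaled to total counts, 19 rose and 5 fell in SNX-5422+PAO over PAO, 3 rose and 58 fell after PAO, 51 rose and 4 fell after CEES, and 1 rose and 4 fell in SNX-5422+CEES over CEES. With the mitochondrial ribosomal RNA covariate 32 rose and 4 fell in SNX-5422+PAO over PAO (median log2 fold change 0.38, against 0.39 without it), and 4 rose and 6 fell after PAO (-0.16, against -0.13). Of 55 condensin and other mitotic genes 31 rose and none fell in SNX-5422+PAO over PAO (39 and none without its library 1, 12 and none scaled to total counts), with Aspm, a spindle pole protein, at 0.83 (SE 0.09, edgeR adjusted p = 0.000144), Kif14 at 0.83 and Iqgap3 at 0.77. Of 12 CDC25, WEE1 and APC/C regulators tested 3 rose there (6 without library 1), Cdc25c by 0.96, Fbxo5 by 0.80 and Ccnf by 0.38. Of 17 genes of origin recognition and firing 6 rose there (7 without library 1), among them Clspn (0.83), and of 23 polymerase, clamp loader and RPA genes 4 rose (9 without library 1), among them Pole (0.63). After CEES 12 of the 55 condensin and other mitotic genes rose and 1 fell (17.8% and 16.2% of all genes). Those raised included the condensin subunit Smc2 (0.61), Hmmr (0.62) and Melk (0.64). In the origin list 5 of 17 rose and none fell after CEES, among them Orc1 (0.69) and Tipin (0.54). Wee1, the kinase that restrains CDK1, fell after PAO (by 0.78) and after CEES (by 0.54).

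Histone genes that are expressed in S phase were counted too. Of 53 replication-dependent histone genes tested, 27 rose and none fell in SNX-5422+PAO over PAO (2.57% and 3.39% of all genes). Their median log2 fold change was 0.73. Against Control 20 rose in SNX-5422+PAO (10.7% of all genes). Without SNX-5422+PAO library 1, 35 rose over PAO and 25 over Control. Scaled to total counts 14 rose over PAO and 2 over Control. With the mitochondrial ribosomal RNA covariate edgeR raised 15 over PAO (median 0.76) and 0 over Control (median 0.56, 11 at an unadjusted p under 0.05). After PAO none rose and 2 fell (11.9% and 8.58% of all genes). After CEES none rose and 2 fell (17.8% and 16.2% of all genes). By edgeR none was called in SNX-5422+CEES over CEES (3.54% of all genes rose and 3.46% fell), where 5 had an unadjusted p under 0.05. Their summed level was 1034 to 1641 CPM in SNX-5422+PAO and 769.9 to 930.3 CPM in PAO libraries, without overlap. In SNX-5422+CEES it was 1005 to 1143 CPM, against 833 to 1118 CPM in CEES and 910.3 to 1093 CPM in Control libraries. Histone copies are nearly identical, so their counts are uncertain gene by gene.

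Markers of cells that could divide, and of skeletal muscle, were set beside these results. In SNX-5422+PAO over PAO, none of 8 basal keratinocyte markers was called (2 had an unadjusted p under 0.05), with summed levels of 10188 to 10476 CPM in SNX-5422+PAO and 9747 to 10701 CPM in PAO libraries. Hair follicle matrix and cortex markers summed to 55.7 to 426 CPM in SNX-5422+PAO and 92.3 to 134 CPM in PAO libraries, with 7 of 7 positive and none called (1 at an unadjusted p under 0.05). Fibroblast markers summed to 2645 to 4255 CPM in SNX-5422+PAO and 3605 to 7019 CPM in PAO libraries, with 2 of 6 lowered, and neutrophil markers to 22.9 to 42.5 CPM and 58.4 to 96.2 CPM in the same groups, with 4 of 6 tested lowered. Macrophage and monocyte markers had 2 of 8 lowered in that comparison, and endothelial markers none of 6 called (5 at an unadjusted p under 0.05, with 6 of 6 negative). Skeletal muscle markers summed to 107593 to 120224 CPM in SNX-5422+PAO and 80860 to 86940 CPM in PAO libraries. All 7 lay above without overlap (11.7% of all genes), with 1 raised. Of all genes, 2.57% rose and 3.39% fell in that comparison.

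After PAO alone, 2 basal keratinocyte markers rose over Control and 1 of 8 fell, where 11.9% of all genes rose and 8.58% fell. Hair follicle matrix and cortex markers summed to 92.3 to 134 CPM in PAO and 161 to 315 CPM in Control libraries, with 7 of 7 negative and none called by edgeR (2 at an unadjusted p under 0.05). Of the markers of cells that enter or divide after injury, 5 of 6 fibroblast, 8 of 8 macrophage and monocyte, 6 of 6 tested neutrophil and 1 of 6 endothelial markers rose, and none of 7 skeletal muscle markers was called (none had an unadjusted p under 0.05).

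After CEES alone, 6 of 6 fibroblast, 8 of 8 macrophage and monocyte, 6 of 6 tested neutrophil and 5 of 6 endothelial markers rose over Control. Of the 8 basal keratinocyte markers 5 fell and 2 rose. Of all genes, 17.8% rose and 16.2% fell. Of 7 hair follicle matrix and cortex markers 4 fell, and all 7 lay below Control without overlap (24% of all genes). Their sums were 57.3 to 90.0 CPM in CEES and 161 to 315 CPM in Control libraries. Of 7 skeletal muscle markers 6 fell, with sums of 27569 to 30321 CPM in CEES and 53394 to 98306 CPM in Control libraries.

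In SNX-5422+CEES over CEES 6 of 8 basal keratinocyte markers rose, with sums of 10270 to 11947 CPM in SNX-5422+CEES and 7531 to 8760 CPM in CEES libraries. There 6 of 7 skeletal muscle markers rose too, with sums of 52470 to 72285 CPM in SNX-5422+CEES and 27569 to 30321 CPM in CEES libraries, without overlap. Of the macrophage and monocyte markers 4 of 8 fell and of the neutrophil markers 1 of 6. No fibroblast, endothelial or hair follicle matrix and cortex marker was called by edgeR there. None of 6 fibroblast markers had a positive fold change, and 5 lay below CEES without overlap (12.8% of all genes). Fibroblast sums were 9207 to 12431 CPM in SNX-5422+CEES and 13643 to 16258 CPM in CEES libraries. The fold change was positive for 2 of 6 endothelial and 6 of 7 hair follicle matrix and cortex markers. Of all genes, 3.54% rose and 3.46% fell in that comparison. Muscle satellite cell markers summed to 18.7 to 33.6 CPM in PAO, 21.1 to 27.8 in SNX-5422+PAO and 6.68 to 10.8 in Control libraries. They summed to 10.1 to 11.1 CPM in CEES and 11.7 to 12.8 in SNX-5422+CEES libraries. T cell markers summed to 8.45 to 11.5 CPM in PAO, 5.88 to 8.31 in SNX-5422+PAO and 14.2 to 23.1 in Control libraries. In CEES they summed to 7.47 to 8.38 CPM and in SNX-5422+CEES to 7.46 to 11.8 CPM. Lists of other cell types are not described here. None of the markers in the lists described was at 0 in a group, and their part in the members' results was not tested.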

How the data were processed

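RNA was measured in 15 libraries of mouse dorsal skin, 3 in each of 5 groups. An Aurum kit gave the RNA and Ribo-Zero Gold removed its ribosomal part, per the labels' protocols. The submitters' processing notes name build GRCm39 and bcl2fastq 2.18.0.12, Trim Galore 0.6.7, STAR 2.7.10a and HTSeq 2.0.2. Neither the gene annotation nor whether counting used strand was given in the sources used here. The values are raw read counts per gene, as the authors deposited them. The 5 summary rows were left out (no-feature reads made up 35.2 to 46.9%), and 52093 of 53700 identifiers had a symbol. Gene counts ranged from 16838212 to 28887367 per library, which sets the precision of low genes such as Fen1.

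Counts were fitted with edgeR 4.0.16 (limma 3.58.1, R 4.3.3) in 1 quasi-likelihood model of all 15 libraries, with group means, TMM factors (0.82 to 1.19), filterByExpr and 10 residual degrees of freedom. P-values were two-sided and Benjamini-Hochberg adjusted over 22529 genes, with calls at an adjusted p under 0.05. CPM used TMM library sizes, and means of log2(CPM + 0.5) used a pseudocount of 0.5. Scripts were tested on simulated data. Alternatives were DESeq2 1.42.0, other scalings, no filter, a mitochondrial ribosomal RNA covariate, leaving those genes out, fitting only the groups compared, a replicate block and leaving out each library. No 2 libraries of a group were duplicates (chi-square per degree of freedom of 6.99 to 50.2). The labels number all SNX-5422+CEES libraries alike, so these were numbered in record order.

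The members and lists were chosen with earlier results of these data known. Values in all libraries are given for up to 6 called members with the smallest p per direction in each of the 5 comparisons whose fold changes are plotted, and always for Mki67, Top2a, Cdk1, Pcna and E2f1; from other lists, up to 3 called genes per direction, and always Cdkn1a, Foxm1, Mybl2, Ccnd1, Myc and E2f7.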

Additional observations from a re-analysis of the deposited data

Results flagged for a closer look

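For Aspm, which encodes a spindle pole protein outside the 57 members, the effect of SNX-5422 after CEES minus that after PAO was -0.59 on the log2 scale (edgeR adjusted p = 0.0399), a difference between groups that passed its own test. For Gadd45a, a stress-induced growth arrest gene, the same difference was 1.4 (edgeR adjusted p = 0.028), with a log2 fold change of -0.25 in SNX-5422+CEES over CEES and of -1.64 in SNX-5422+PAO over PAO.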

How the results depend on the processing

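Scaled to total counts, 30 members were called in PAO vs Control, 19 in SNX-5422+PAO vs PAO, 0 in SNX-5422+CEES vs CEES, 52 in CEES vs PAO and 4 in SNX-5422+PAO vs Control, where the S phase median turned to -0.10; this scaling moves all genes together. With the mitochondrial ribosomal RNA covariate, 2 were called in PAO vs Control, 4 in CEES vs PAO and 0 in SNX-5422+PAO vs Control. The M phase medians in that fit were -0.22, 0.50 and 0.36, against -0.21, 0.51 and 0.40 without the covariate, and the calls over all genes were 2206, 1066 and 534, against 4607, 4255 and 4353; the cause was not tested. Fitting only the groups compared gave 9 in SNX-5422+PAO vs Control, with fewer samples. For the difference between the SNX-5422 effects, no filter gave 2 and DESeq2 gave 9. Leaving out each library in turn gave 7 to 12 members in PAO vs Control, 11 to 25 in CEES vs Control, 14 to 46 in SNX-5422+PAO vs PAO, 0 to 1 in SNX-5422+CEES vs CEES, 19 to 41 in CEES vs PAO, 7 to 31 in SNX-5422+PAO vs Control, 17 to 27 in SNX-5422+CEES vs Control and 0 to 7 in the difference. The S phase median of SNX-5422+CEES vs CEES, -0.02, ranged from -0.0511 to 0.0454 when 1 library was left out, turned positive without CEES library 1 (0.0454), and was 0.0008 without CEES library 3 and 0.0005 without SNX-5422+CEES library 3. Of named members' results under alternatives, 807 kept their side of the threshold and direction and 41 lost the call. All of these results were calls, mostly chosen for the smallest p-values, and many alternatives left out a library of neither group compared. Most were therefore likely to keep their call, and these numbers do not measure how stable the members are. Same-numbered libraries did not deviate together (r of -0.104 to 0.103 over 18 pairs). This gave no sign that the numbers pair them, but 3 libraries per group cannot exclude a shared block. SNX-5422+CEES libraries were not part of this check. The replicate block gave 9 members in PAO vs Control, 14 in CEES vs Control, 27 in SNX-5422+PAO vs PAO, 26 in CEES vs PAO and 17 in SNX-5422+PAO vs Control. The same 4 groups without the block gave 10, 18, 32, 32 and 19, a fit added after seeing the data.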
